A study of Mus musculus with 12 samples.

Results

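The 9 receptors described here are G protein-coupled receptors that guide the movement of leukocytes. They are the oxysterol receptor Gpr183, the sphingosine phosphate receptors S1pr1 and S1pr2, the anaphylatoxin receptors C5ar1 and C3ar1, and the chemokine receptors Ccr1, Ccr2, Cx3cr1 and Cxcr4. They were taken from a table of 53801 gene records as the rows whose symbol equals a listed name, and all 9 were found. RNA-seq was made from RAW264.7 cells, an established line of mouse macrophages, at passages 3 to 5. The 4 groups, with 3 libraries each, were cells given siRNA against Synbindin (the protein of Trappc4, a subunit of the TRAPP vesicle-tethering complexes) and 4 h of LPS at 100 ng/ml, cells given a control siRNA and the same LPS, cells given the Synbindin siRNA and no LPS, and cells given the control siRNA and no LPS. They are called silenced and control cells below, and LPS is the outer-membrane lipid of Gram-negative bacteria that macrophages detect through Toll-like receptor 4. All groups share 1 cell line and carry an siRNA, and an siRNA lowers its target without removing it. The labels do not say whether the replicates were prepared separately, so every p-value here rests on a spread between libraries that may be technical.

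These receptors span the membrane and pass a signal to heterotrimeric G proteins, most of them to the Gi class, which steers a cell up a gradient of the ligand. Gpr183 reads oxysterols made by Ch25h and Cyp7b1, S1pr1 and S1pr2 read sphingosine phosphate, C5ar1 and C3ar1 read fragments of the complement proteins C5 and C3, and the chemokine receptors read chemokines. In macrophages and monocytes they direct entry into tissue, positioning within it and retention.

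Values are FPKM, a fragment density adjusted for transcript length and library size, as the authors deposited them, and levels are compared between genes only on that length-adjusted scale. The libraries held 11672 to 12351 genes at 1 FPKM or more, with a rough depth of 7.36 to 17.6 M (mega) fragments. Trappc4 had 5.86, 7.71 and 8.26 FPKM in silenced libraries with LPS, against 13.8, 15.7 and 9.45 FPKM in control libraries with LPS. Without LPS it had 4.35, 7.17 and 6.15 FPKM in silenced libraries, against 14.1, 13.1 and 12.5 FPKM in control libraries. The targeted transcript thus separated silenced from control libraries at each treatment, although limma's adjusted p was 0.12 with LPS and 0.0558 without. Of 9 macrophage markers, 8 passed the filter on low values and Mertk stayed below 1 FPKM in all 12 libraries. Their summed level was 1990 to 2720 FPKM in silenced and 1480 to 1880 FPKM in control libraries with LPS, and 2140 to 2610 FPKM in silenced and 1560 to 1710 FPKM in control libraries without LPS. The markers did not move together: most of the gap lay in the lysozyme gene Lyz2, which averaged 1100 FPKM in silenced and 463 FPKM in control cells with LPS, and 1210 FPKM in silenced and 554 FPKM in control cells without it (limma adjusted p = 0.0121 and 0.0283). The Fc receptor gene Fcgr1 was also higher in silenced cells with LPS (33.9 FPKM, against 19.3 FPKM in control cells, adjusted p = 0.0417), while the means of Cd68, Csf1r and Spi1 were lower there, at 390, 174 and 149 FPKM in silenced and 453, 203 and 152 FPKM in control cells, and did not pass. Fitted on the LPS groups alone, 0 genes passed between silenced and control cells, so Lyz2 and Fcgr1 did not pass there either. The defining markers of B cells, T and NK cells, neutrophils, fibroblasts and epithelial cells were below 1 FPKM in all 12 libraries. The RNA is from bulk cells, so fewer cells carrying a transcript and less of it per cell cannot be told apart.

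The 250 bases before the annotated start of 4 receptors whose transcript moved with LPS are shown, because the LPS results turn on these genes. They are RefSeq sequences of GRCm38.p6, all read from the minus strand, at chr14:121965194-121965443 for Gpr183, chr1:128592300-128592549 for Cxcr4, chr6:122856158-122856407 for C3ar1 and chr9:123968693-123968942 for Ccr1. Capitals mark matches, on either strand, to the letters of the motifs described after them, and positions count back from -1, the last base before the start.
Gpr183: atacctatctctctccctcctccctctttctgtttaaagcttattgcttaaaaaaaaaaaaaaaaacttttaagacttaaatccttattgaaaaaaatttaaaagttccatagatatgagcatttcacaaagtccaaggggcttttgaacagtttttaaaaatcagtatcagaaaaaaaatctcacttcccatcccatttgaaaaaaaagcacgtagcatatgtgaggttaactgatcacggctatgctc
Cxcr4: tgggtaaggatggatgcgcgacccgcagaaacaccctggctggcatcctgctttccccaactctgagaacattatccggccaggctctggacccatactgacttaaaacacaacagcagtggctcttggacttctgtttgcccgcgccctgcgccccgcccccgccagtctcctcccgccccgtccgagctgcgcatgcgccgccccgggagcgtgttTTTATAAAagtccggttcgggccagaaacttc
C3ar1: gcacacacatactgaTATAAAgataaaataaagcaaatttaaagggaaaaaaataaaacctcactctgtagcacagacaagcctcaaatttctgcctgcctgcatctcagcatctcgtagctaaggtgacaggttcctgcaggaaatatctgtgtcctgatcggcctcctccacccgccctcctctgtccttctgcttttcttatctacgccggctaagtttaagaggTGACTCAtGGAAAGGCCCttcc
Ccr1: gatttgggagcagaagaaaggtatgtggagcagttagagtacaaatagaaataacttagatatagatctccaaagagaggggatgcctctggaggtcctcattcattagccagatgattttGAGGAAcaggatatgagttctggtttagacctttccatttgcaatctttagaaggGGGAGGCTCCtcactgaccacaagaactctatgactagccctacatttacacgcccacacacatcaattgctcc

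The motifs searched, on both strands, were a kB-type site (GGG and CC with any 5 bases between), an AP-1 site (TGANTCA), an ETS or PU.1 site (GAGGAA), an interferon response site (GAAA and GAAA with any 2 bases between) and a TATA box (TATAAA). Of the 9 receptors, 8 had an entry in the promoter table, and S1pr1 had none. The Gpr183 window held no match to any of the 5 letter strings and had a GC content of 32%, against a median of 52.4% over 32851 mouse promoters of the same length. The C3ar1 window held an AP-1 match at -22 to -16 from the start, next to a kB-type match at -14 to -5 on the opposite strand, and a TATA match at -235 to -230. The Ccr1 window held a kB-type match at -74 to -65 and an ETS or PU.1 match at -129 to -124. The Cxcr4 window held overlapping TATA matches on both strands, at -30 to -25 and -32 to -27, and no match to the other strings. Among all promoters, 45.8% held the kB-type letters, 6.75% the AP-1 letters, 23.3% the ETS or PU.1 letters, 2.98% the interferon response letters and 12.4% the TATA letters. The kB-type letters were in 3 of the 8 receptor windows (C3ar1, Ccr1 and Cx3cr1). These matches describe the letters, not binding.

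With LPS, Gpr183, S1pr1 and Cxcr4 fell in both silenced and control cells, while C3ar1 and Ccr1 rose in both. Ccr2 rose and S1pr2 fell in silenced cells. In silenced cells 7 of 9 receptors passed limma's test at an adjusted p under 0.05, 4 lower and 3 higher, where 48.5% of the 13078 genes tested passed (35.5% lower, 13% higher). In control cells 5 of 9 passed, 3 lower and 2 higher, where 48.2% of all genes passed (32.9% lower, 15.3% higher). The receptors' median difference was 0.36 in silenced and 0.17 in control cells, against -0.21 and -0.17 over all genes. These medians are the fitted values of C5ar1 in silenced and Ccr2 in control cells, and without the second silenced LPS library the median in silenced cells was -0.43, so its direction rests on that library. Differences are in log2(FPKM + 1), so those of low genes come out smaller than the ratio of their FPKM. Libraries with and without LPS did not overlap for 8 of 9 receptors in silenced and 6 of 9 in control cells, where 57.8% and 56.2% of all genes did not. S1pr1 and Cxcr4 reached the minimum of 1 FPKM in 3 libraries only without LPS, and Ccr2 only with LPS. These 3 were thus tested only through the libraries where they are high, and their calls and gaps support nothing about the set. Among the other 6 receptors 2 rose and 2 fell in silenced cells, and 2 rose and 1 fell in control cells. Median-ratio scaling put the median of all genes at 0.02 in both cell types. On that scale 6 receptors passed in silenced and 5 in control cells, where 5799 and 6068 of the 13078 genes passed. Those counts again include receptors tested only through the libraries where they are high.

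**Figure D1:**
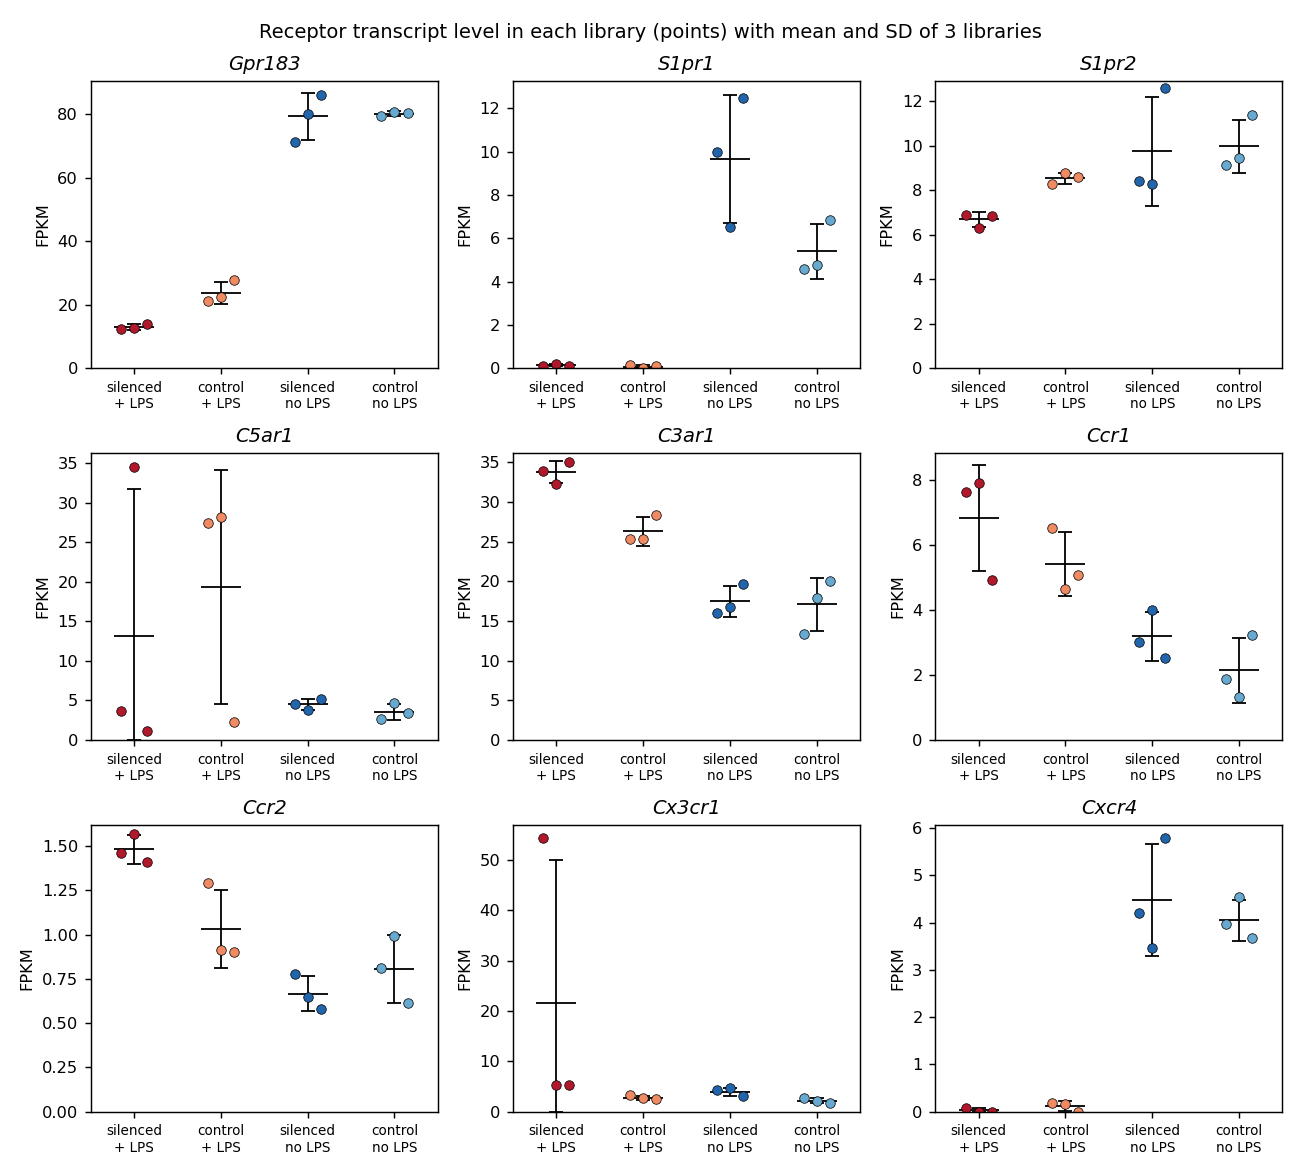
FPKM of each receptor (vertical axis, linear, from 0, own scale per panel) in the 4 groups, with 1 point per library and the mean and SD of 3 libraries (lower SD bars stop at 0). Gpr183, S1pr1 and Cxcr4 sit lower with LPS, C3ar1 and Ccr1 sit higher, the C5ar1 points split between high and low libraries with LPS, and 1 library sets the Cx3cr1 mean of silenced cells with LPS.

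Gpr183 (ENSMUSG00000051212, GRCm38 chromosome 14, 121952551 to 121965195, minus strand) was the most abundant of the receptors without LPS. With LPS it had 12.4, 12.7 and 14.0 FPKM in silenced libraries and 21.1, 22.3 and 27.8 FPKM in control libraries. Untreated, it had 71.4, 80.2 and 86.2 FPKM in silenced libraries and 79.4, 80.7 and 80.4 FPKM in control libraries. The LPS libraries lay far below the untreated ones in both cell types, and only with LPS did silenced and control libraries stand apart. The mean with LPS was 16.4% of the untreated mean in silenced cells (log2 difference -2.51 ± 0.10 SE, limma adjusted p = 9.65e-09) and 29.6% in control cells (-1.72 ± 0.10, adjusted p = 2.42e-07). The gene lies within the span of Ubac2 on the opposite strand and shares 0 exon bases with it. Ubac2 did not pass in either LPS comparison (adjusted p = 0.153 in silenced and 0.307 in control cells).

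Of the enzymes around the Gpr183 ligand, Ch25h and Cyp7b1 were at or near 0 FPKM and Hsd3b7 fell with LPS. Cyp27a1, also in the list of oxysterol enzymes, averaged 8.31 FPKM in silenced and 8.03 FPKM in control cells with LPS. Without LPS it averaged 10.6 FPKM in silenced and 8.84 FPKM in control cells. Ch25h, which makes the first hydroxylation of the ligand, had 0.465 ± 0.355 FPKM in silenced and 0.345 ± 0.151 FPKM in control cells with LPS (SD, n = 3 each) and was listed at 0 in all 6 untreated libraries. Cyp7b1, which makes the second hydroxylation, was listed at 0 in all 12 libraries. Hsd3b7, which inactivates the ligand, fell with LPS, to 3.30 ± 0.318 FPKM in silenced cells, against 8.98 ± 1.25 FPKM without LPS, and to 4.36 ± 1.13 FPKM in control cells, against 9.72 ± 0.938 FPKM without LPS. Its log2 differences were -1.21 ± 0.15 in silenced and -1.02 ± 0.15 in control cells (limma adjusted p = 5.67e-05 and 0.000215).

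S1pr1 (ENSMUSG00000045092, chromosome 3, 115710433 to 115715072, minus strand), the receptor that draws lymphocytes out of tissue toward sphingosine phosphate, was almost absent from LPS libraries. It had 0.110, 0.181 and 0.0904 FPKM in silenced and 0.127, 0 and 0.0929 FPKM in control libraries with LPS. In untreated cells it had 9.97, 6.54 and 12.5 FPKM in silenced and 4.57, 4.78 and 6.83 FPKM in control libraries. Every LPS library was below every untreated one. S1pr1 passed the filter on low values only through untreated libraries, so its calls support nothing about the set. The difference was -3.20 ± 0.20 in silenced and -2.56 ± 0.20 in control cells (limma adjusted p = 2.33e-07 and 1.51e-06), and with a pseudocount of 0.1 in place of 1 it was -5.39 and -5.04.

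S1pr2 (ENSMUSG00000043895, chromosome 9, 20962361 to 20976781, minus strand) is known for holding migration back. It had 6.88, 6.32 and 6.86 FPKM in silenced and 8.26, 8.76 and 8.61 FPKM in control libraries with LPS. The untreated values were 8.41, 8.29 and 12.6 FPKM in silenced and 9.12, 9.45 and 11.4 FPKM in control libraries. Its level thus varied far less with LPS than that of S1pr1. The LPS difference in silenced cells was -0.46 ± 0.14 (limma adjusted p = 0.0163), but -0.21 with median-ratio scaling and -0.21 with quantile normalization (adjusted p = 0.256 and 0.285), and -0.43 without the second silenced LPS library (adjusted p = 0.0538). In control cells it was -0.20 ± 0.14 (adjusted p = 0.268) and 0.02 with median-ratio scaling.

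Of 16 genes for oxysterol and sphingosine phosphate enzymes and transporters, 9 were tested. With LPS 5 of them fell in silenced and 4 in control cells, where 35.5% and 32.9% of all genes fell, and 0 rose in either, with medians of -0.54 and -0.19 against -0.21 and -0.17 over all genes. The phosphatase Sgpp1, which removes the phosphate of sphingosine phosphate, differed by -1.38 ± 0.12 in silenced and -1.04 ± 0.12 in control cells. The lyase Sgpl1, which cleaves sphingosine phosphate for good, differed by -0.62 ± 0.10 in silenced and -0.90 ± 0.10 in control cells. The kinase Sphk2, which makes sphingosine phosphate, had 6.62 ± 0.533 FPKM in silenced and 7.01 ± 0.460 FPKM in control cells with LPS, against 7.66 ± 1.81 and 7.30 ± 0.619 FPKM in silenced and control cells without it.

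C3ar1 (ENSMUSG00000040552, chromosome 6, 122847138 to 122856161, minus strand), the receptor of the C3a fragment, was the most abundant of the receptors with LPS. It had 33.9, 32.3 and 35.0 FPKM in silenced and 25.4, 25.3 and 28.4 FPKM in control libraries with LPS. Without LPS it had 16.0, 16.8 and 19.7 FPKM in silenced and 13.4, 17.9 and 20 FPKM in control libraries. The LPS libraries did not overlap the untreated ones in either cell type. The difference was 0.91 ± 0.13 in silenced and 0.61 ± 0.13 in control cells (limma adjusted p = 0.000127 and 0.00218).

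C5ar1 (ENSMUSG00000049130, chromosome 7, 16246743 to 16259540, minus strand), the receptor of the strong chemoattractant C5a, gave uneven values among LPS libraries. It had 3.66, 34.6 and 1.07 FPKM in silenced and 27.5, 28.2 and 2.28 FPKM in control libraries with LPS. Untreated libraries gave 4.49, 3.83 and 5.15 FPKM in silenced and 2.66, 4.64 and 3.43 FPKM in control libraries. Untreated libraries lay between 2.66 and 5.15 FPKM, while 3 of the 6 LPS libraries were high and 3 were within or below that range. The LPS difference was 0.36 ± 0.97 in silenced cells (limma adjusted p = 0.788), and -0.81 without the second silenced LPS library. In control cells it was 1.63 ± 0.97 (adjusted p = 0.186), and 2.68 without the third control LPS library (adjusted p = 0.0291). The annotation holds 3 C5ar1 transcripts of 674 to 2540 bases, and FPKM divides by a transcript's length. Whether transcript assignment moved these values was not tested.

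Complement genes were mostly low. Of 18 listed, 6 were tested, and with LPS 3 rose and 1 fell in each cell type, where 13% of all genes rose and 35.5% fell in silenced and 15.3% and 32.9% in control cells. C3 was below 1 FPKM in every untreated library and was tested only through LPS libraries, so its call as higher supports nothing. Among the other 5 genes 2 rose. Cfb, 1 of these 2, averaged 0.403 FPKM in silenced and 0.286 FPKM in control cells without LPS. It too passed the filter on low values only through LPS libraries, so its call supports nothing either. C3, the source of the C3ar1 ligand, had 2.53 ± 0.403 FPKM in silenced cells with LPS, against 0.322 ± 0.156 FPKM without, and 1.41 ± 0.129 FPKM in control cells with LPS, against 0.178 ± 0.0906 FPKM without. Its differences were 1.42 ± 0.15 in silenced and 1.03 ± 0.15 in control cells. The convertase factor Cfb rose by 1.88 ± 0.30 in silenced and 2.07 ± 0.30 in control cells. Hc, the source of the C5ar1 ligand, was listed at 0 in all 12 libraries.

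Ccr1 (ENSMUSG00000025804, chromosome 9, 123962124 to 123968692, minus strand), a receptor of Ccl3, Ccl5 and Ccl9, had 7.63, 7.89 and 4.93 FPKM in silenced and 6.52, 4.64 and 5.07 FPKM in control libraries with LPS. In untreated cells it had 3.01, 4.00 and 2.52 FPKM in silenced and 1.87, 1.31 and 3.23 FPKM in control libraries. The LPS libraries lay above the untreated ones in both cell types, and silenced and control libraries overlapped at each treatment. The LPS difference was 0.90 ± 0.23 in silenced and 1.07 ± 0.23 in control cells (limma adjusted p = 0.00774 and 0.00281).

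Ccr2 (ENSMUSG00000049103, chromosome 9, 124101950 to 124113557, plus strand), the Ccl2 receptor that brings monocytes out of the bone marrow, stayed near the minimum used for testing. It had 1.46, 1.57 and 1.41 FPKM in silenced and 1.29, 0.910 and 0.904 FPKM in control libraries with LPS. Without LPS it had 0.776, 0.646 and 0.577 FPKM in silenced and 0.813, 0.993 and 0.613 FPKM in control libraries. All silenced LPS libraries were above all others, and control LPS libraries overlapped the untreated ones. The LPS difference was 0.57 ± 0.14 in silenced cells (limma adjusted p = 0.00512) and 0.17 ± 0.14 in control cells (adjusted p = 0.336). Ccr2 reached 1 FPKM in 3 silenced and 1 control library with LPS and in 0 untreated ones. It was thus tested only through the silenced LPS libraries, where it is high, so its call and this gap support nothing.

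Cx3cr1 (ENSMUSG00000052336, chromosome 9, 119901616 to 120069879, minus strand), the receptor of the membrane-bound chemokine Cx3cl1, had 54.3, 5.28 and 5.33 FPKM in silenced and 3.27, 2.64 and 2.54 FPKM in control libraries with LPS. The untreated values were 4.24, 4.62 and 3.08 FPKM in silenced and 2.69, 2.18 and 1.78 FPKM in control libraries. The first silenced LPS library was far above every other library, and silenced libraries were above control libraries at each treatment. The LPS difference was 1.40 ± 0.64 in silenced cells (limma adjusted p = 0.0919), and 0.35 without that library (adjusted p = 0.114). It was 1.92 without the second or without the third silenced LPS library, with adjusted p = 0.0348 and 0.0381. In control cells it was 0.25 ± 0.64 (adjusted p = 0.773).

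The annotation of Cx3cr1 bears on how its reads could be assigned. Of its 3 transcripts, 1 ends in an exon of 12 bases, reached across an intron of 147651 bases. That intron spans Xirp1, Csrnp1 and Gorasp1 on the same strand, named here for their position and after their values were seen, with which Cx3cr1 shares 0 exon bases. On the opposite strand, the antisense gene Gm33858 shares 78 exon bases with Cx3cr1. With LPS, Csrnp1 had 38.8, 23.8 and 45.4 FPKM in silenced and 30.5, 10.3 and 35.2 FPKM in control libraries. Untreated, it had 2.42, 6.55 and 2.67 FPKM in silenced and 6.78, 3.72 and 2.74 FPKM in control libraries. Xirp1 had 7.35, 6.32 and 6.29 FPKM in silenced and 2.53, 2.35 and 4.55 FPKM in control libraries with LPS. Without LPS it had 0.391, 0.648 and 0.339 FPKM in silenced and 0.131, 0.117 and 0.1 FPKM in control libraries. The first silenced LPS library thus held the highest of the 12 values for Xirp1 and Cx3cr1 and the middle of the 3 silenced LPS values for Csrnp1, and silenced libraries were above control libraries at each treatment for Xirp1 as for Cx3cr1. Between silenced and control cells Xirp1 differed by 0.92 ± 0.18 with LPS (limma adjusted p = 0.0477, lost in 11 of 12 fits that left out a library) and by 0.38 ± 0.18 without (adjusted p = 0.44). Gorasp1, unlike Xirp1 and Csrnp1, was lower with LPS, by -0.92 ± 0.19 in silenced and -0.76 ± 0.19 in control cells (limma adjusted p = 0.00162 and 0.00542). Between silenced and control cells with LPS, Gorasp1 differed by -0.13 ± 0.19 (adjusted p = 0.827). The part of these neighbours in the Cx3cr1 values was not tested.

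**Figure D2:**
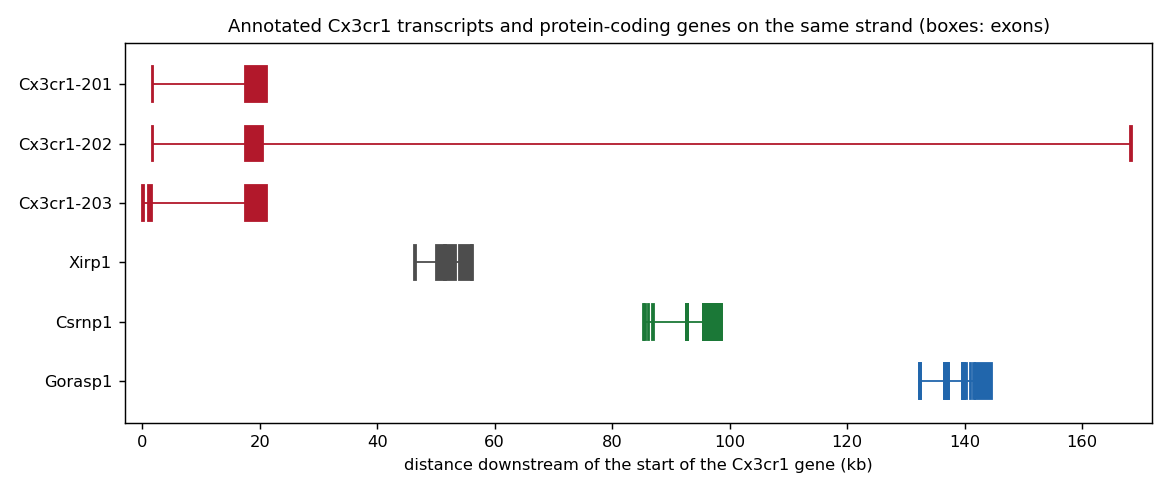
Annotated exons (boxes) and introns (lines) of 3 Cx3cr1 transcripts and of Xirp1, Csrnp1 and Gorasp1, which lie on the same strand, against distance in kb downstream of the start of the Cx3cr1 gene. Only 1 Cx3cr1 transcript runs across the other 3 genes, to a last exon of 12 bases.

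Cxcr4 (ENSMUSG00000045382, chromosome 1, 128588199 to 128592293, minus strand), the Cxcl12 receptor that holds myeloid cells in the bone marrow, was close to absent with LPS. It had 0.0841, 0 and 0 FPKM in silenced and 0.185, 0.164 and 0 FPKM in control libraries with LPS. Without LPS it had 4.20, 3.46 and 5.78 FPKM in silenced and 3.96, 4.53 and 3.67 FPKM in control libraries. All LPS libraries were below all untreated ones, and silenced and control libraries overlapped at each treatment. Cxcr4 passed the filter on low values only through untreated libraries, so its calls support nothing about the set. The difference was -2.39 ± 0.16 in silenced and -2.18 ± 0.16 in control cells (limma adjusted p = 4.13e-07 and 1.04e-06), and with a pseudocount of 0.1 it was -5.19 and -4.40.

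**Figure D3:**
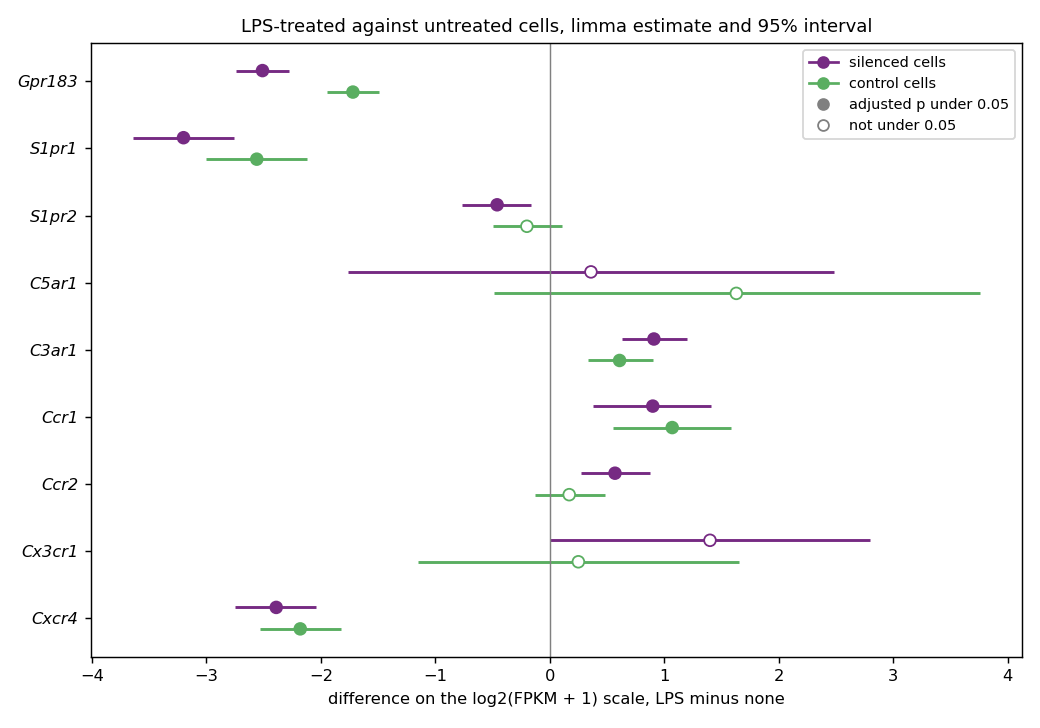
Differences between LPS-treated and untreated cells (horizontal axis, log2(FPKM + 1) scale, LPS minus none) with 95% intervals from limma, for silenced cells (upper row of each receptor) and control cells (lower row), filled where the adjusted p was under 0.05. Gpr183, S1pr1 and Cxcr4 lie left of 0 and C3ar1 and Ccr1 right of 0 in both cell types, and the intervals of C5ar1 and Cx3cr1 are wide.

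Most chemokine ligands of these receptors rose with LPS. Of 12 listed, 9 were tested, and 8 rose and 0 fell with LPS in each cell type, where 13% of all genes rose in silenced and 15.3% in control cells. Ccl7 and Cx3cl1 were below 1 FPKM in every untreated library and were tested only through LPS libraries, so their calls support nothing. Among the other 7 genes 6 rose in each cell type. Ccl6, 1 of these 6, averaged 0.953 FPKM in silenced and 0.358 FPKM in control cells without LPS. It too passed the filter on low values only through LPS libraries, so its call supports nothing either. The median difference of the 9 tested genes was 3.38 in silenced and 3.73 in control cells, the fitted value of Ccl7 in both. That median depends on the pseudocount, since Ccl7 was listed at 0 in 2 of 3 silenced and 3 of 3 control libraries without LPS. Ccl5, a Ccr1 ligand, had 289 ± 39.6 FPKM in silenced cells with LPS, against 1.27 ± 0.461 FPKM without, and 215 ± 42 FPKM in control cells with LPS, against 1.51 ± 0.189 FPKM without. Ccl9, also a Ccr1 ligand, differed by 2.56 ± 0.07 in silenced and 2.68 ± 0.07 in control cells. Ccl2, the main Ccr2 ligand, differed by 5.32 ± 0.24 in silenced and 3.97 ± 0.24 in control cells. Cx3cl1 had 0.835 ± 0.248 FPKM in silenced and 0.967 ± 0.195 FPKM in control cells with LPS and was listed at 0 in all untreated libraries. Cxcl12, the Cxcr4 ligand, was listed at 0 in all 12 libraries.

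Of 36 other chemoattractant receptors, 10 were tested. With LPS 3 rose and 3 fell in silenced cells, where 13% and 35.5% of all genes did. In control cells 3 rose and 2 fell, where 15.3% and 32.9% did. The medians were 0.01 in silenced and 0.09 in control cells, against -0.21 and -0.17 over all genes. Of the 10, Ccrl2 and Xcr1 were tested only through LPS libraries and 1 gene that fell only through untreated ones, so their calls support nothing. Among the other 7 genes 1 rose in each cell type, 2 fell in silenced and 1 fell in control cells. With LPS, 1 of the 2 that fell in silenced cells averaged 0.725 FPKM there. It too passed the filter on low values only through untreated libraries, so its call supports nothing either. The chemerin-binding receptor Ccrl2 had 76.4 ± 7.52 FPKM in silenced and 54.4 ± 8.39 FPKM in control cells with LPS, against 0.691 ± 0.0756 FPKM in silenced and 0.660 ± 0.398 FPKM in control cells without it. Ptafr, the receptor of platelet-activating factor, differed by 2.08 in silenced and 1.54 in control cells, and Xcr1 by 1.66 and 1.70. Among genes of G protein coupling, desensitization and migration signalling, 44 of 47 were tested. With LPS 7 rose and 23 fell in silenced cells, where 13% and 35.5% of all genes did, and 9 rose and 21 fell in control cells, where 15.3% and 32.9% did, with medians of -0.35 and -0.24. Rgs16, which speeds the shut-off of G proteins, differed by 2.48 in silenced and 2.86 in control cells. Pik3r5, the adaptor of the PI3 kinase that G proteins activate, differed by 1.44 in silenced and 1.64 in control cells. The catalytic part of that kinase, Pik3cg, went the other way, by -1.50 ± 0.14 in silenced and -1.46 ± 0.14 in control cells (limma adjusted p = 6.65e-06 and 8.82e-06). Arhgef11, a guanine nucleotide exchange factor, differed by -1.02 in silenced and -1.34 in control cells.

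After LPS, Gpr183 was lower in silenced than in control cells, the 1 receptor of 9 that passed, where 0.719% of all genes passed (0.405% lower). Gpr183 averaged 13.0 ± 0.829 FPKM in silenced and 23.7 ± 3.57 FPKM in control cells with LPS (SD, n = 3 each), so 54.9% of the control level was present. The difference was -0.81 ± 0.10 with a 95% interval of -1.04 to -0.58 (limma adjusted p = 0.0101), and it was lower in 3 of 3 silenced libraries than in any control library. Without the second silenced LPS library it was -0.79 (adjusted p = 0.0549), and fitted on the LPS groups alone it was -0.81 (adjusted p = 0.11). Without LPS, Gpr183 averaged 79.3 ± 7.44 FPKM in silenced and 80.2 ± 0.678 FPKM in control cells, with a difference of -0.02 ± 0.10 and an interval of -0.25 to 0.21. The interaction, that is the LPS difference in silenced cells minus that in control cells, was -0.79 ± 0.15 for Gpr183 (interval -1.11 to -0.46) and missed the threshold over all genes (adjusted p = 0.138).

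For the other receptors no difference passed between silenced and control cells with LPS. At an unadjusted p under 0.05 limma gave 4 of 9 receptors, Gpr183 included, and 1697 genes in all. Silenced and control libraries with LPS did not overlap for 5 of 9 receptors (C3ar1, Ccr2 and Cx3cr1 higher, Gpr183 and S1pr2 lower), where 18.9% of all genes did not overlap. Ccr2 reached 1 FPKM in 3 silenced and 1 control library with LPS and in 0 untreated ones. It was thus tested only through the silenced LPS libraries, where it is high, so its place in this count supports nothing. C3ar1 differed by 0.35 ± 0.13 (adjusted p = 0.275), S1pr2 by -0.31 ± 0.14 (adjusted p = 0.37) and Ccr2 by 0.29 ± 0.14 (adjusted p = 0.412). Cx3cr1 differed by 1.77 ± 0.64 (adjusted p = 0.259), and by 0.73 without the first silenced LPS library (adjusted p = 0.128). Beside these values, the macrophage marker sum also separated silenced libraries (higher) from control libraries at each treatment, mostly through Lyz2, while 5 of the 8 markers had a higher and 3 a lower mean in silenced cells with LPS. Its part in them was not tested.

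Without LPS, 0 of 9 receptors passed between silenced and control cells, where 0.214% of all genes passed. At an unadjusted p under 0.05 limma gave 1 receptor, S1pr1, and 1565 genes in all. S1pr1 averaged 9.66 ± 2.97 FPKM in silenced and 5.39 ± 1.25 FPKM in control cells, a difference of 0.71 ± 0.20 (interval 0.28 to 1.15, adjusted p = 0.206), and the second silenced library lay within the control range. Cx3cr1 was the 1 receptor of 9 whose libraries did not overlap, where 18.2% of all genes did not, with 3.98 ± 0.805 FPKM in silenced and 2.22 ± 0.453 FPKM in control cells. Its difference was 0.63 ± 0.64 (adjusted p = 0.738), with 1 spread estimated over all 12 libraries, and 0.63 ± 0.15 without the first silenced LPS library (adjusted p = 0.163). The intervals of Gpr183, S1pr2, C3ar1, Ccr2 and Cxcr4 lay between -0.42 and 0.45.

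**Figure D4:**
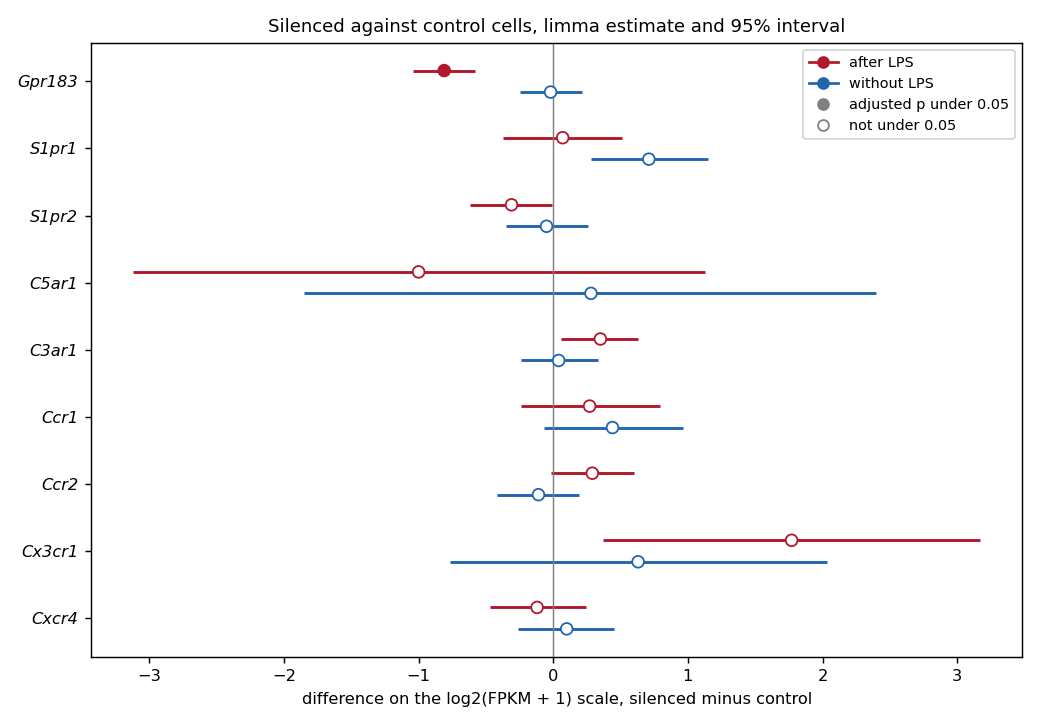
Differences between silenced and control cells (horizontal axis, log2(FPKM + 1) scale, silenced minus control) with 95% intervals from limma, after LPS (upper row of each receptor) and without LPS (lower row), filled where the adjusted p was under 0.05. Gpr183 after LPS is the only filled point, at -0.81, and its point without LPS lies at -0.02.

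The interaction passed for 0 of 9 receptors, where 0.0612% of all genes passed. At an unadjusted p under 0.05 limma gave 2 receptors, Gpr183 and S1pr1, and 1480 genes in all. S1pr1 had an interaction of -0.64 ± 0.28 (adjusted p = 0.424). The calls of Ccr2 and S1pr2 with LPS in silenced but not control cells are therefore not shown to differ between them (interactions 0.40 ± 0.20 and -0.27 ± 0.20, adjusted p = 0.471 and 0.641).

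Of the ligand genes tested between silenced and control cells, 1 passed. Ccl9 had 184 ± 13.2 FPKM in silenced and 134 ± 5.88 FPKM in control cells without LPS, a difference of 0.45 ± 0.07 (limma adjusted p = 0.039), and it lost the call in 10 of 12 fits that left out a library. With LPS it had 1090 ± 35.7 FPKM in silenced and 866 ± 53.3 FPKM in control cells (0.34 ± 0.07, adjusted p = 0.0746). With LPS, 0.719% of all genes passed and 1697 of the 13078 tested were at an unadjusted p under 0.05 with limma. In the oxysterol and sphingosine phosphate list 0 of 9 passed with LPS and 0 were under that p, and in the complement list 0 of 6 passed and 4 were. In the signalling list 0 of 44 passed with LPS and 8 were under that p, and in the chemokine ligand list 0 of 9 passed and 4 were. Without LPS, 0.214% of all genes passed and 1565 were under that p. The oxysterol and sphingosine phosphate, complement and signalling lists then had 0 passing, with 1, 1 and 4 genes under that p. In the chemokine ligand list Ccl9 passed without LPS, and 4 of 9 were under that p.

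The order of the groups differed between receptors. For Gpr183 the silenced LPS libraries were lowest, the control LPS libraries next, and the untreated groups overlapped above them. For S1pr1 and Cxcr4 the LPS groups overlapped each other, as did the untreated groups, with a gap between. For C3ar1 silenced LPS libraries were above control LPS libraries, which were above the overlapping untreated groups. For C5ar1 no neighbouring groups in the order of means stood apart. With LPS, C3ar1 had the highest mean of the 9 receptors in silenced and in control cells and Gpr183 without LPS, while Cxcr4 in silenced and S1pr1 in control cells had the lowest with LPS and Ccr2 without.

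The gene with the profile nearest to each receptor was found among 6618 tested genes, as the smallest mean absolute difference between centred log2(FPKM + 1) profiles over 12 libraries. It was St6gal1 for Gpr183, at 0.14 for a Gpr183 range of 2.70, Rassf3 for Cxcr4 at 0.11 for a range of 2.76, and Fzd7 for S1pr1 at 0.26 for a range of 3.75. For C3ar1 it was Lacc1 at 0.11, for Ccr1 Plk3 at 0.15, for Ccr2 Dcakd at 0.08 and for S1pr2 Mprip at 0.06, where the receptors' own ranges were 0.71 to 1.94. For C5ar1 it was Ube2l6 at 0.74 for a range of 4.10, and for Cx3cr1 Spink5 at 0.43 for a range of 4.31. These are descriptions over 12 libraries, and all profiles come from the same libraries.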

How the data were processed

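Values are gene FPKM as deposited by the authors, 1 table with 53801 gene records and 12 library columns, all mapped to samples by name. HISAT2, StringTie and the GRCm38 build were used, per the submitters' processing notes. The libraries kept strand, per the labels. Versions, gene models, the strand option of the quantification and handling of multiply mapped reads were not given in the sources used here. GENCODE M21 on GRCm38 supplied coordinates for 53620 of the records, matched by ID. FPKM are not counts: 5.11% to 11.2% of low values per library lay within 0.01 of a whole number of estimated steps, where 2% would by chance, so no count test was used and the depths given are only rough.

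The 13078 genes that reached 1 FPKM in 3 or more of the 12 libraries were tested with limma 3.58.1 in R 4.3.3 on log2(FPKM + 1), with 1 mean per group, empirical Bayes moderation along an intensity trend and 8 residual degrees of freedom before moderation. P-values were 2-sided and adjusted (Benjamini-Hochberg) over all genes tested in each of 5 comparisons, and genes with an adjusted p under 0.05 count as called. The fit was tested on simulated data. The alternatives tried were 0.1 as pseudocount, no filter or a minimum of 5 FPKM, 3 other scalings, the replicate block, a fit on the compared groups alone, moderation with no trend, and leaving out each library. Figures and motif searches used Python 3.11.15.

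The receptors and gene lists were chosen with earlier results of these data known. Named genes are Trappc4, the 9 receptors, up to 3 called members with the smallest p of each other list, the receptors' ligands, and the gene nearest in profile to each receptor (mean FPKM of at least 5). Genes next to a receptor are named for their position, and Pik3cg is named beside its adaptor Pik3r5. One list member that the rule names is not reported here.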

Additional observations from a re-analysis of the deposited data

How the results depend on the processing

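Without LPS, 28 genes were called between silenced and control cells, and 48 with the replicate block, 6 in a fit of only the groups compared, 10 with no intensity trend, and 3 to 41 when a library was left out. After LPS the 94 genes became 38 with quantile normalization, 0 with only the groups compared (1622 at an unadjusted p under 0.05 with limma), 50 with no trend and 10 to 91 without a library. The 1 receptor called there, Gpr183, became 0 with only the groups compared and 0 to 1 without a library. The 8 interaction genes became 5 with a pseudocount of 0.1, 4 with no trend and 0 to 20 without a library. Higher genes made up 43.6% of the calls after LPS, against 60.5% with median-ratio scaling and 73.7% with quantile normalization. For LPS they made up 26.8% of the calls in silenced and 31.7% in control cells, against 51.3% and 53% with median-ratio scaling and 40.2% and 42.6% with quantile normalization.

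Among receptors, S1pr2 with LPS in control cells turned to 0.02 with median-ratio scaling. Leaving out a library turned differences that had not been called: without LPS between silenced and control cells Gpr183 ranged from -0.08 to 0.05, S1pr2 from -0.23 to 0.05, C3ar1 from -0.11 to 0.16 and Cxcr4 from -0.07 to 0.24. C5ar1 with LPS in silenced cells ranged from -0.81 to 1.24 and the Ccr1 interaction from -0.41 to 0.03. The causes were not tested.

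Deviations of same-numbered libraries correlated at -0.03 to 0.19, over 0.1 in 3 of 18 pairs, all 3 among the replicate 3 libraries, and over 0.1 in 1 of 36 pairs with different numbers. These correlations do not decide whether same-numbered libraries were prepared together, and the main fits treat them as sharing only a number. Between silenced and control cells after LPS, the replicate block gave 1969 genes at an unadjusted p under 0.05 with limma, against 1697 in the main fit. Without LPS it gave 1793, against 1565. The replicate block changed no receptor's call, with 96 genes called after LPS, 6595 for LPS in silenced and 6558 in control cells, and 10 interactions. Ccr2 and Cxcr4 gave no value at a minimum of 5 FPKM, nor did the interaction with only the groups compared. FPKM without stated counts leave the error of levels near 0 (S1pr1, Cxcr4, Ch25h) unknown.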
